A study of Mus musculus with 12 samples.

Results

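BCR-independent lymphoma clones were compared with the BCR-negative lymphoma cells of the same 3 mouse tumours, on 6 of the 12 arrays of the series. The 3 untreated arrays titled BCR-independent, each with a clone number, were set against the 3 untreated arrays titled BCR-negative, and arrays were paired by the tumour number in the title. The tumours were numbered 2567, 2646 and 2676, and their clones 8, 7 and 1. All cells were B lymphoma cells of l-MYC;B1-8f mice (C57BL/6J x BALB/c) kept as primary cultures. These mice have a MYC transgene, and Cre recombinase can cut out their B1-8 heavy chain gene. Cultures were transduced with TAT-Cre, a cell-permeable Cre, to ablate the B cell receptor (BCR). BCR-negative cells were sorted, 4 days later, from mixed cultures in which the BCR-positive cells were displacing them. BCR-independent cells arose from BCR-negative tumours kept in culture for a long time. They were mixed as clones with BCR-positive cells of their own tumour, were not displaced over the same 4 days, and were then sorted in the same way. The other 6 arrays hold untreated BCR-positive cells and BCR-negative cells grown with CHIR99021, which inhibits the kinase GSK3, and their levels are given only for reference.

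The design sets limits on this comparison. Each tumour is represented by 1 clone and 1 array per group, so differences between clones of one tumour cannot be seen. Prolonged culture and cloning coincide with the BCR-independent group and cannot be told apart from independence of the receptor. The untreated BCR-negative and BCR-positive arrays of tumours 2646 and 2676 also carry a mark, (2), at the end of their titles. The labels do not explain it. The clone and CHIR99021 arrays do not carry it, so clone and BCR-negative arrays of like mark can be paired in tumour 2567 alone. Where clones and CHIR99021-treated cells both differ from untreated BCR-negative cells, the mark coincides with that difference in tumours 2646 and 2676.

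The BCR is a surface immunoglobulin of heavy and light chains coupled to the signalling chains Cd79a and Cd79b, and mature B cells need its signal to persist. B cell precursors rely instead on the interleukin-7 receptor and on transcription factors such as Myb. Proteins of the cell surface, the receptor included, carry N-linked sugar chains, and enzymes of the MGAT family decide how many branches these chains have.

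The deposited values are RMA signals of 35556 probe sets on the log2 scale, and a difference of 1 on this scale is a 2-fold difference in signal. Array medians lay between 3.32 and 3.44 and the 40th percentiles between 3.06 and 3.16, so a level near 3 is close to the dim end of the array. The number of arrays limits the precision. Differences are BCR-independent minus BCR-negative, the mean of 3 within-tumour differences, with the standard error (SE) of a limma fit that had tumour as a block. In bulk RNA, fewer cells of a type and less RNA per cell cannot be told apart. The B lineage markers Cd79a (10.41 in the clones and 10.08 in BCR-negative cells) and Cd79b (9.54 and 9.51) were among the brighter genes in both groups, whereas Ms4a1, the gene of CD20, read 2.64 and 2.67, in the dim range.

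The heavy chain, the target of Cre, was measured first because it checks the labels. Heavy chain locus probe set 10403043, which the annotation gives to more than 1 heavy chain gene, read 4.76, 4.32 and 4.10 in the clones of tumours 2567, 2646 and 2676. It read 8.51, 7.47 and 8.12 in the BCR-negative cells and 10.66, 10.76 and 11.07 in the BCR-positive cells. The clones were therefore lowest in every tumour, the BCR-negative cells stood between, and no groups overlapped. The signal fell by 3.64 on the log2 scale from BCR-negative cells to clones (SE 0.32, limma adjusted p = 0.0339), which is 12.4-fold, with -3.75, -3.14 and -4.02 in the 3 tumours. Ighv1-72, the segment that encodes the B1-8 variable region, read 4.04 ± 0.28 in the clones, 6.44 ± 0.57 in BCR-negative cells and 9.62 ± 0.30 in BCR-positive cells (SD, n = 3). Its difference of -2.40 (SE 0.32, limma adjusted p = 0.317) did not pass the test. A second probe set with the same annotation as the first, 10403048, differed by -3.06 (limma adjusted p = 0.212), and the neighbouring probe set 10403028, which has no gene in the annotation, by -2.77 (limma adjusted p = 0.233). Variable segments include near-identical copies, so how this signal divides among them is not known. Ighm, the constant region of IgM, was dim throughout (3.74 in the clones and 3.76 in BCR-negative cells) and is no check of the labels.

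The sort labels thus ordered the heavy chain signal as BCR-positive, then BCR-negative, then BCR-independent. Some of the genes described further on ran in the same order. Cd74 read 8.46, 6.37 and 4.93 in these groups, H2-Aa, a chain of MHC class II, read 6.23, 4.47 and 3.46, and Blk, a Src-family kinase of B cells, read 5.39, 4.36 and 3.59. Whether remaining BCR-positive cells or transcripts in the BCR-negative sort play a part in these differences was not tested.

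**Figure D1:**
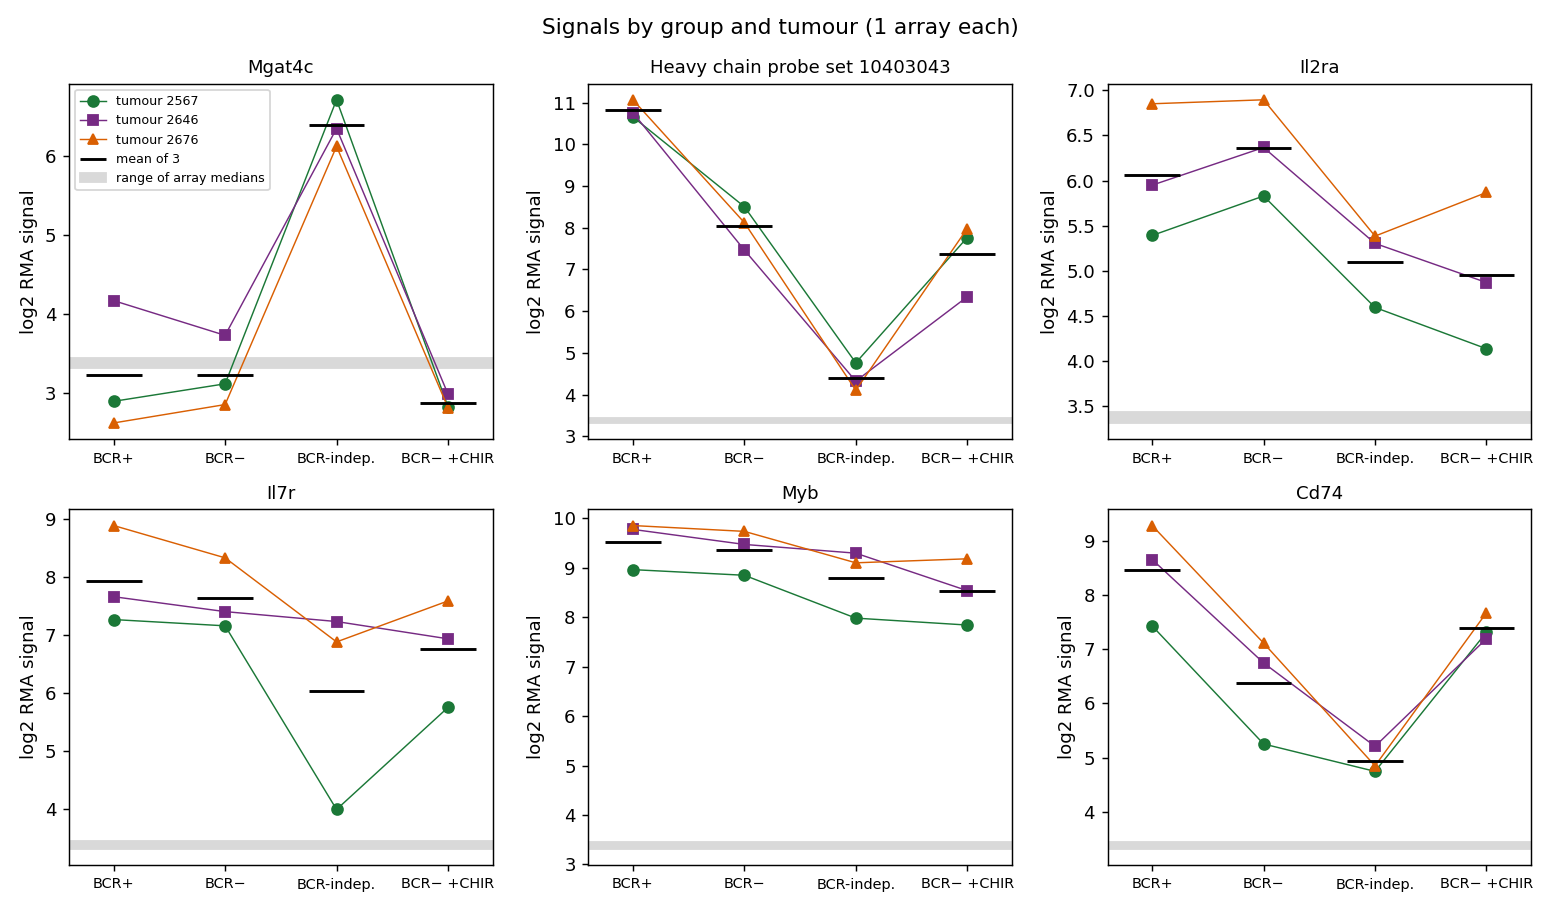
Log2 RMA signal (y axis) of 5 genes and a heavy chain probe set in the 4 groups (x axis), with 1 symbol per tumour, thin lines joining arrays of a tumour, black bars for means of 3 arrays and a grey band for the range of array medians. Mgat4c was above 6 in the 3 clones and below 4.2 on every other array, and the heavy chain probe set was lowest in the clones.

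Mgat4c was the other probe set that passed the test, and the only one annotated to a single gene. Its product belongs to the MGAT4 family, N-acetylglucosaminyltransferases of which Mgat4a and Mgat4b add a branch to N-linked sugar chains. Mgat4c read 6.71, 6.35 and 6.12 in the clones of tumours 2567, 2646 and 2676, against 3.11, 3.73 and 2.85 in their BCR-negative cells. BCR-positive cells read 2.89, 4.17 and 2.62, and CHIR99021-treated BCR-negative cells read 2.82, 2.98 and 2.81. The clones stood above every other array, and the 9 other arrays were near or below their medians, apart from the untreated cells of tumour 2646. Mgat4c rose by 3.16 in the clones (SE 0.28, limma adjusted p = 0.0339), with 3.60, 2.62 and 3.27 in the 3 tumours. Of the 6 arrays compared, 5 were above their 40th percentile, and raising the dim array to its 40th percentile left a difference of 3.07. The BCR-negative levels lay around the array medians, so no fold is given. The call of Mgat4c rested on the design of the fit: its adjusted p was 0.084 with no replicate block, 0.536 with only the 2 groups, and 0.102 once the title mark was a term. It was 0.514, 0.0152 and 0.997 without tumours 2567, 2646 and 2676, where the difference itself stayed between 2.95 and 3.44. Probe set 10403043 lost its call under the same settings and also without tumour 2646 (adjusted p = 0.107).

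The other N-glycan enzymes did not share the size of the Mgat4c difference. Of 14 branching and capping enzymes, all were measured, 1 was called, and the rest had adjusted p-values of 0.898 or more. Mgat4a, from the same family, was higher by 0.67 (SE 0.35), and 1.63 of this lay in tumour 2676 against 0.10 and 0.29 in the others. Mgat2, which starts the second antenna of complex chains, was higher by 0.20 (SE 0.083), at 7.44 against 7.24, and by 0.077 with the mark as a term. Man2a1, a mannosidase that trims the chain before Mgat2 acts, was higher by 0.15 and was at 6.76 against 6.61. Mgat3, which adds the bisecting branch, was dim in both groups, at 2.95 and 2.86. Man2a2 had the lowest value of the list, with -0.22.

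**Figure D2:**
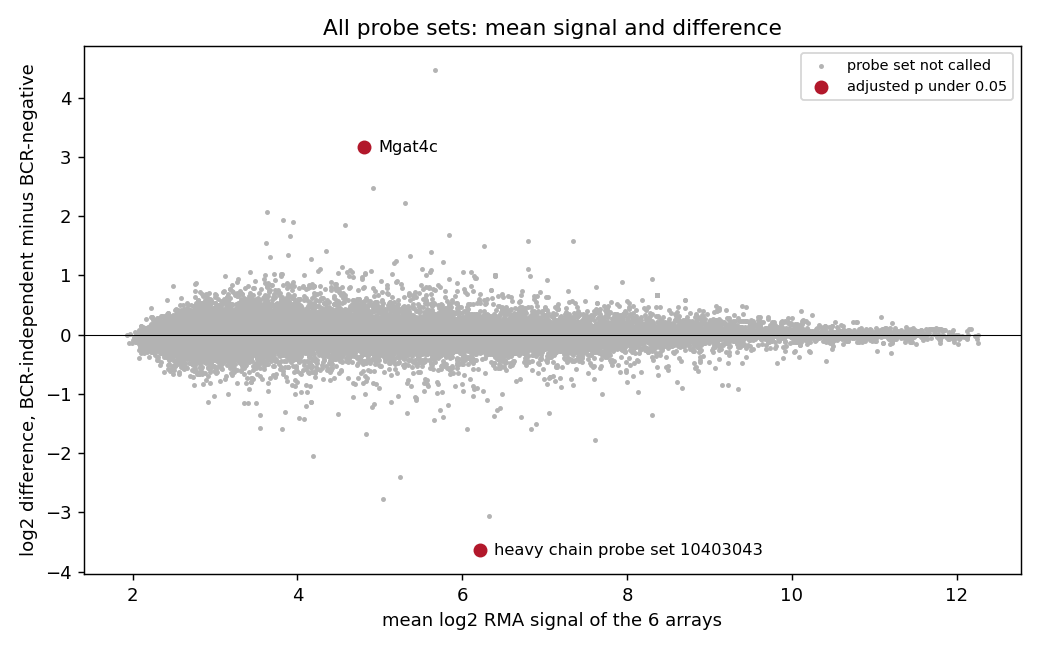
Log2 difference between BCR-independent and BCR-negative cells (y axis) against the mean log2 RMA signal of the 6 arrays (x axis), with a grey point for each of 35556 probe sets and red points for the 2 with a limma adjusted p under 0.05. Mgat4c lies at 3.16 and the heavy chain probe set at -3.64, and other points with differences of like size did not pass the test.

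Across the table, 2 of 35556 probe sets passed at an adjusted p under 0.05, or 0.00562%. An unadjusted p under 0.05 was reached by 1865 probe sets, or 5.25%, where 1777.8 would be expected if nothing differed. Among 18820 genes, each represented by 1 probe set, 583 (3.1%) had an unadjusted p under 0.05 and a higher level in the clones and 365 (1.94%) a lower level. A higher level in 3 of 3 tumours was seen for 2890 genes (15.4%) and a lower level for 1976 (10.5%). The clone arrays lay wholly above the BCR-negative arrays for 614 genes (3.26%) and wholly below for 374 (1.99%). A higher mean in the clones was found for 10156 genes, with a median difference of 0.01 over all genes. The counts for gene groups below are to be read against these shares. Differences other than those of Mgat4c and probe set 10403043 are given as values that did not pass the adjusted test. An exact test that flips the signs of 3 within-tumour differences cannot give a p below 0.25. Without the pairing, an exact test of 3 arrays against 3 cannot give a p below 0.1.

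The genes with the largest higher values in the clones are given first. They had an unadjusted p under 0.05, the same sign in 3 tumours and a signal above the array medians. After Mgat4c came Morc1, a germ-line ATPase that silences transposons, with 2.07 (SE 0.80). It read 2.68, 7.36 and 3.96 in the clones against 2.53, 2.70 and 2.56 in BCR-negative cells, so that most of the difference lay in tumour 2646. Pld4, an endolysosomal exonuclease that degrades nucleic acids, was higher by 1.69 (SE 0.47). It read 6.45, 6.39 and 7.23 in the clones and 4.10, 5.66 and 5.23 in BCR-negative cells, with no overlap, while CHIR99021-treated BCR-negative cells were at 7.35 ± 0.70 (SD, n = 3). Smoc1, a secreted calcium-binding protein, was higher by 1.41, with 2.54 of it in tumour 2676 and 0.81 and 0.86 in tumours 2567 and 2646. Robo2, a receptor for the guidance cue SLIT, was higher by 1.31, and Nefh, the heavy neurofilament chain, by 1.24, each mostly in tumour 2567 (2.83 and 2.69). Once the title mark was a term, which puts more weight on tumour 2567, Morc1 was at 1.11, Pld4 at 2.59, Robo2 at 1.99 and Nefh at 1.94.

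Most other genes of this group were more even among the tumours. Lhx2, a LIM-homeodomain transcription factor, read 6.85, 6.59 and 6.48 in the clones against 5.71, 5.16 and 5.85 in BCR-negative cells, and was higher by 1.07 (SE 0.18, limma adjusted p = 0.642). The clones lay above all BCR-negative arrays for this gene. Atp6v0a1, a membrane subunit of the vacuolar proton pump, was higher by 1.10 (SE 0.18, limma adjusted p = 0.642), with 1.11, 0.65 and 1.54. Its groups overlapped because tumours differed in level, from 5.62 to 6.84 in BCR-negative cells. Kcnn4, a calcium-activated potassium channel, was higher by 1.33, with 1.63, 0.82 and 1.55. Cbs, the enzyme that makes cystathionine from homocysteine, was higher by 1.08, with 1.67, 0.64 and 0.93. Praf2, a membrane protein of the PRA1 family, was higher by 0.98 but uneven, with 1.36, 1.31 and 0.29. With the mark as a term Cbs and Praf2 were at 1.94 and 1.63. The Zic5 probe set was higher by 1.84 (2.98, 1.13 and 1.42), but it is numbered among probe sets of another chromosome, and a second probe set of this transcription factor gene differed by only 0.37. Which gene that signal comes from is not known.

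After Ighv1-72, the genes with the largest lower values in the clones included Lxn, Arsb, Il7r, Cd74 and Il2ra. Il2ra, the alpha chain of the interleukin-2 receptor (CD25), read 4.6, 5.30 and 5.39 in the clones against 5.83, 6.37 and 6.89 in BCR-negative cells. All clone arrays were below all BCR-negative arrays, the difference was -1.27 (SE 0.18, limma adjusted p = 0.361), and the tumours gave -1.23, -1.06 and -1.51. CHIR99021-treated BCR-negative cells were at 4.96 ± 0.87 and BCR-positive cells at 6.07 ± 0.74 (SD, n = 3). Arsb, a lysosomal sulfatase, was lower by 1.78 (-2.65, -1.18 and -1.52), and its second probe set gave -1.22, with -1.24, -1.23 and -1.19. Lxn, latexin, an inhibitor of carboxypeptidases, was lower by 2.04. It read 6.72 and 5.73 in BCR-negative cells of tumours 2646 and 2676 and 3.68 and 2.92 in their clones, while in tumour 2567 both were dim, at 3.20 and 2.92.

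Several of the lower genes were nearly as dim in the clones as the array medians. Prkcb, protein kinase C beta, which links the BCR to NF-kB, read 3.31, 3.28 and 3.36 in the clones against 6.01, 3.49 and 4.65 in BCR-negative cells, a difference of -1.40 (SE 0.50). Its clone values were close together, and the spread lay in the BCR-negative cells, with tumour 2646 already dim. Cldn10, a claudin of tight junctions, read 3.37 against 4.80, and was at 3.53 in CHIR99021-treated cells. Cpn1, a subunit of carboxypeptidase N, differed by -1.59, of which tumour 2676 gave -3.02. Pde2a, a cyclic nucleotide phosphodiesterase, was lower by 1.35 (-2.52, -0.47 and -1.05) and Myl4, a myosin light chain, by 1.5 (-2.06, -0.69 and -1.76), both from high levels. H2-Q6, a class I MHC gene of the Qa region with close relatives, was lower by 1.32, with -0.065 in tumour 2567. With the mark as a term, the differences of Lxn (-0.98), Cpn1 (-0.65) and H2-Q6 (-0.45) were smaller, and those of Arsb (-2.78), Prkcb (-2.43) and Pde2a (-2.28) larger. In all, 671 genes met the naming rule apart from rank, 404 higher and 267 lower, and 36 predicted genes or small RNAs among them were not named.

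**Figure D3:**
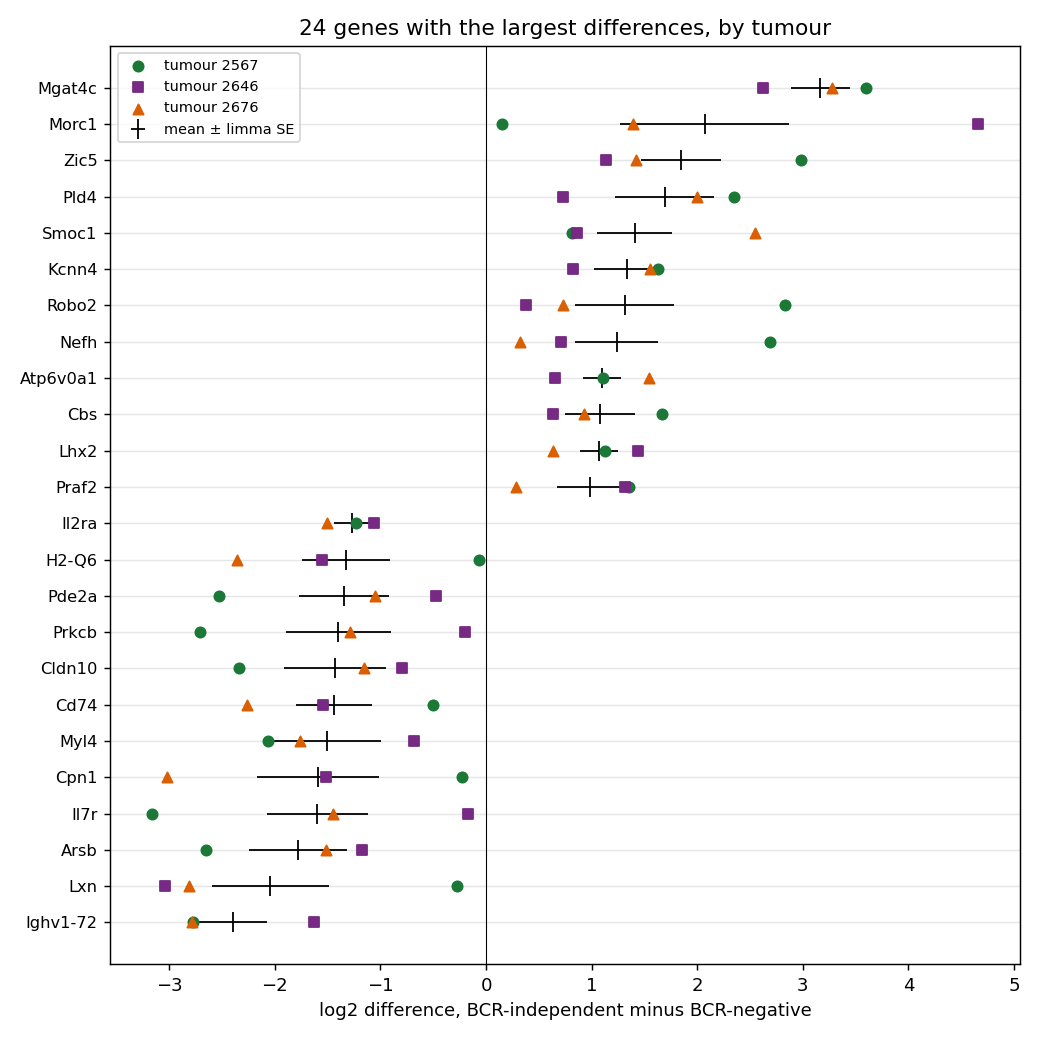
Log2 difference, BCR-independent minus BCR-negative (x axis), of the 12 genes with the largest higher and the 12 with the largest lower values (y axis), with 1 symbol per tumour and a black tick with a bar for the mean ± limma SE. The symbols of Mgat4c (2.62 to 3.60) and Il2ra (-1.51 to -1.06) lie close together, while those of Morc1 run from 0.15 to 4.66.

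Several early B cell genes were lower in the clones, chiefly in tumours 2567 and 2676. Il7r, the interleukin-7 receptor alpha chain, read 3.99, 7.23 and 6.88 in the clones against 7.16, 7.41 and 8.33 in BCR-negative cells. The difference was -1.60 (SE 0.48, limma adjusted p = 0.890), with -3.17, -0.17 and -1.45, so that tumour 2646 differed little and the groups overlapped. Myb, a transcription factor of blood progenitors, read 7.98, 9.30 and 9.10 against 8.85, 9.47 and 9.74, a difference of -0.56 (SE 0.15, limma adjusted p = 0.890) with the same order of tumours (-0.87, -0.18 and -0.64). Sox4, needed for early B cell development, was lower by 1.24, with -2.74, -0.046 and -0.94, and Vpreb3, a partner of nascent light chains, by 0.91, with -1.59, -0.13 and -0.99. Igll1, a part of the surrogate light chain, read 4.0, 3.92 and 4.07 in the clones against 4.27, 4.70 and 8.03 in BCR-negative cells, and its difference of -1.67 came mostly from tumour 2676 (-3.96). CHIR99021-treated BCR-negative cells were also lower than untreated ones for Il7r (6.76 ± 0.93) and Myb (8.52 ± 0.67) (SD, n = 3). That group shares no array with the clones but is read against the same BCR-negative arrays. Like the clones, it lacks the title mark that those BCR-negative arrays carry in tumours 2646 and 2676.

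Of 14 early B cell genes measured, 0 were called, 4 had an unadjusted p under 0.05 and were lower, and 6 were lower in 3 of 3 tumours while 2 were higher. The 4 were Myb, Il7r, Sox4 and Vpreb3. The list's median difference was -0.23, against 0.01 over all genes, and -0.17, -0.026 and -0.54 in tumours 2567, 2646 and 2676. The median was -0.026 without tumour 2676, and -0.56 after probe sets under the 40th percentile were left out. With the mark as a term, Il7r was at -2.55 and Vpreb3 at -1.53. Dntt, Kit, Flt3, Lef1 and Erg were dim in both groups.

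B lineage genes were mostly at similar levels in both groups, with lower values for the transcription factors Ebf1 and Tcf3. Ebf1, which specifies the B lineage, was lower by 0.80 (SE 0.29), with -1.14, -0.38 and -0.87, from a level of 9.0. Tcf3, the gene of the E2A proteins, was lower by 0.29 (SE 0.096), with -0.36, -0.21 and -0.30, and its clone arrays were all below its BCR-negative arrays. Of 21 mature B lineage genes, 2 had an unadjusted p under 0.05, both lower, and 0 were called. Cd79a differed by 0.33 and Cd79b by 0.030. With the mark as a term Ebf1 was at -1.37 and Cd79a at 0.71. Of 17 BCR signalling chains and kinases, Prkcb and Vav1 (-0.35) had an unadjusted p under 0.05, both lower, and with the mark as a term Vav1 was at -0.16. Btk, Syk and Blnk, the kinases and the linker downstream of the receptor, were at 8.04, 7.83 and 8.29 in the clones and 7.81, 8.06 and 8.04 in BCR-negative cells.

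Among antigen presentation genes, Cd74, the invariant chain that escorts MHC class II molecules, had the largest difference. It read 4.75, 5.21 and 4.85 in the clones against 5.25, 6.75 and 7.11 in BCR-negative cells, with no overlap, a difference of -1.44 (SE 0.36, limma adjusted p = 0.840) and -0.51, -1.54 and -2.27 by tumour. With the title mark as a term the difference was -0.50. H2-Aa was lower by 1.01 (-0.15, -1.09 and -1.79), and with the mark as a term it was 0.073. Of 11 MHC class II and costimulation genes measured, 1 (Cd74) had an unadjusted p under 0.05, 7 were lower and 4 higher, and 4 were lower in 3 of 3 tumours. Their median of -0.11 became 0.52 with the mark as a term, -0.26 without tumour 2567 and -0.026 without tumour 2646.

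By their median, genes of the hypoxia response and of glycolysis were lower in tumours 2646 and 2676 and not in tumour 2567. Their promoters often hold the core letters that hypoxia-inducible factors recognise, ACGTG, here searched on both strands of the 250 bases before the gene start (RefSeq, GRCm38.p6). Of 26 list genes with such a window, 18 (69.2%) held it, in at least 1 of their windows, against 18.5% of 27025 genes. Genes with several starts have several windows, and by window the shares were 21 of 40 (52.5%) and 16.6% of 32851. The windows of Ddit4 and Ankrd37 are shown as examples, of a gene lower in 3 of 3 tumours and of the list's lowest value, with the match in capitals in the gene's own orientation. The Ddit4 window is chr10:59951771-59952020 on the minus strand and holds 1 match, and the Ankrd37 window is chr8:45999851-46000100 on the minus strand and holds 2.
Ddit4: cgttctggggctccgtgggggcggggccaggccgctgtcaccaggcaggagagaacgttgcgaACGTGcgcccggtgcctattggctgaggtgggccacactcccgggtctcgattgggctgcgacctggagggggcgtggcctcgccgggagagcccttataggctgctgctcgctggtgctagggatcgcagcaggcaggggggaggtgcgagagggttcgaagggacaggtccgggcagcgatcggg
Ankrd37: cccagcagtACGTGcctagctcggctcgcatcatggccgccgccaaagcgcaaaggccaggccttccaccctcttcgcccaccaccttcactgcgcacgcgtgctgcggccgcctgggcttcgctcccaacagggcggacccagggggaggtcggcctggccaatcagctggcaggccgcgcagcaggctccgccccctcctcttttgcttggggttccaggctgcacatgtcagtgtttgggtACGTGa
A match is a description of these letters and was not tested as a binding site. Members with and without the letters had like medians, -0.26 over the 18 measured members with them and -0.21 over the 7 without.

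Ankrd37, an ankyrin repeat gene induced in hypoxia, was lower by 1.36 (SE 0.70), with 0.89, -2.34 and -2.64 in tumours 2567, 2646 and 2676. Kdm3a, a histone demethylase, was lower by 0.88 (SE 0.28), with -0.034, -1.13 and -1.46, and its clone arrays were close together, at 6.76 ± 0.023 (SD, n = 3). Ddit4, an inhibitor of mTORC1, was lower by 0.85 (SE 0.30) and alike in all tumours (-1.0, -0.88 and -0.66). Adm, the gene of adrenomedullin, was lower by 0.64, and Vegfa, a growth factor for blood vessels, by 0.51 (-0.34, -0.39 and -0.81). Slc2a1, the glucose transporter GLUT1, was lower by 0.70, with 0.30, -1.35 and -1.04, whereas Ldha, lactate dehydrogenase A, was at 11.41 against 11.48. Of 29 members measured, 0 were called, 4 had an unadjusted p under 0.05, all lower, and 23 were lower by mean. Their median was -0.27, with 0.12, -0.57 and -0.37 by tumour, and 6 members were lower in 3 of 3 tumours and 1 was higher. With the title mark as a term, where the value rests in large part on tumour 2567, the median was 0.20, Ankrd37 was at 0.63, Slc2a1 at 0.41, Kdm3a at -0.14, Adm at -0.099 and Vegfa at -0.13, while Ddit4 was at -0.73. The median was -0.43, -0.12 and -0.16 without tumours 2567, 2646 and 2676. The mark coincides with the BCR-negative arrays of the 2 tumours in which the values were lower, and its part in the result was not tested. Bnip3, Bnip3l, Pgam1 and Pgk1 are represented by probe sets numbered among those of other chromosomes, and the median was -0.27 without them.

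Genes of growth metabolism were slightly higher in the clones of the same tumours 2646 and 2676. Of 25 MYC target and ribosome biogenesis genes, 24 had a higher mean in the clones, with a median of 0.21, and -0.092, 0.30 and 0.38 in tumours 2567, 2646 and 2676. Pprc1, a coactivator of mitochondrial and growth genes, was higher by 0.45 (SE 0.14), and Nolc1 and Nop56, nucleolar proteins that serve ribosomal RNA modification, by 0.33 and 0.24. An unadjusted p under 0.05 was reached by 6 members, 8 were higher in 3 of 3 tumours, and 0 were called. The letters CACGTG, the site of MYC and MAX, were found in the promoter windows of 1 of 19 of these genes with a window (5.3%) and of 6.9% of all genes. Nucleotide and one-carbon synthesis genes had a median of 0.14 (-0.065, 0.20 and 0.24), and 3 of 20 had an unadjusted p under 0.05: Gart and Atic, enzymes of purine synthesis (0.28 and 0.23), and Shmt2, the mitochondrial serine hydroxymethyltransferase (0.42, with 0.49, 0.27 and 0.51). With the mark as a term the medians of these lists were 0.034 and 0.039, and Pprc1, Nolc1 and Nop56 were at 0.21, 0.13 and 0.14. Without tumour 2676 the medians were 0.13 and 0.042, and without tumour 2567 they were 0.34 and 0.25. Wdr12, Npm1 and Odc1 of the first list and Phgdh of the second are represented by probe sets numbered among those of other chromosomes. With these members left out the medians were 0.21 and 0.14.

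Chaperones of the endoplasmic reticulum had small higher values in all 3 clones. Of 18 unfolded protein response genes, 16 had a higher mean in the clones, 8 were higher in 3 of 3 tumours and 0 lower, and the median was 0.20, with 0.28, 0.25 and 0.20 by tumour. Pdia3 and Pdia6, protein disulfide isomerases, were higher by 0.46 and 0.45 (SE 0.19 each), Dnajb11, a cochaperone, by 0.34 and Manf, a secreted factor induced by stress of the endoplasmic reticulum, by 0.32. Hspa5, the chaperone BiP, gave 0.25, 0.25 and 0.26 from a level of 8.95, and its clone arrays were all above its BCR-negative arrays. Pdia3, Pdia6, Dnajb11 and Manf, but not Hspa5, had an unadjusted p under 0.05, and 0 members were called. With the mark as a term, the median was 0.33 and Pdia3 was at 0.76. Of 19 cholesterol synthesis genes, 19 had a higher mean, with a median of 0.21, but 0 had an unadjusted p under 0.05, and the median was 0.091, 0.42 and -0.015 by tumour, 0.038 without tumour 2646 and -0.12 with the mark as a term.

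By their list medians, cell cycle, GSK3 and death regulators differed little. Of 17 mitosis genes 16 had a lower mean, with a median of -0.092 that was 0.12, -0.081 and -0.34 by tumour and 0.14 with the mark as a term, and 0 had an unadjusted p under 0.05. The 21 DNA replication genes had a median of -0.058, with none at that level. Of 14 GSK3 and Wnt pathway genes 0 had an unadjusted p under 0.05, their values ran from -0.17 to 0.20 and their median was 0.01. The 12 BCL2 family genes ran from -0.23 to 0.25. None of these, nor of the homing receptors, germinal centre, immediate-early and respiratory chain genes, had an unadjusted p under 0.05. Of 20 FOXO targets, 15 had a lower mean, with a median of -0.16 and tumour medians of 0.21, -0.17 and -0.50 (-0.39, -0.092 and -0.036 without tumours 2567, 2646 and 2676). Among them Ccng2, a cyclin that rises as cells leave the cycle, was lower by 0.87 (-0.10, -0.92 and -1.60). Members of other lists also had an unadjusted p under 0.05. Of 18 p53 targets (median -0.019) they were Mdm2, the ubiquitin ligase of p53 (-0.36, with -0.32, -0.52 and -0.25), and Plk2, a polo-like kinase (-1.39, with -2.62, 0.25 and -1.80). Of 13 MYC and MAX network genes (median 0.040) they were the MAX partners Mxd1 (-0.30) and Mxd4 (-0.48). Of 17 NF-kB pathway and target genes (median -0.0080) it was Nfkbia, the NF-kB inhibitor (-0.48, with -0.025, -0.59 and -0.82). Of 20 G1 cyclins, CDKs and their inhibitors (median -0.041, values from -0.54 to 0.81) it was Cdkn1c, a cyclin-dependent kinase inhibitor (0.22). With the mark as a term Ccng2 was at -0.085, Nfkbia at -0.033 and Plk2 at -2.12.

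**Figure D4:**
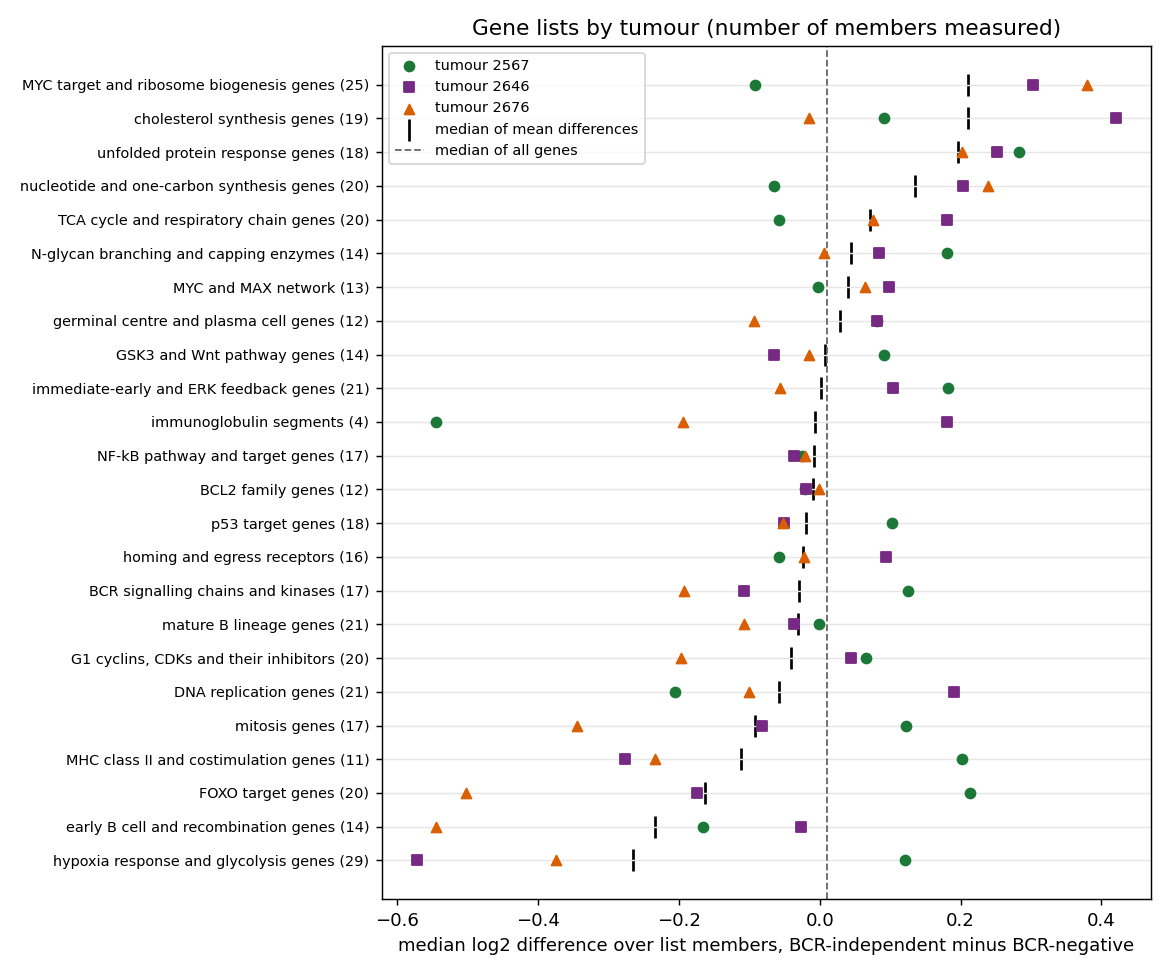
Median log2 difference over the measured members of each gene list (x axis), BCR-independent minus BCR-negative, for 24 lists (y axis, number of members in parentheses), with 1 symbol per tumour, a black tick for the median of mean differences and a dashed line for the median of all genes at 0.01. The 3 symbols of the unfolded protein response genes lie together at 0.20 to 0.28, while those of the hypoxia genes run from -0.57 to 0.12.

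Most genes that differed at least 2-fold did so in 1 tumour only. Each of these differences is 1 array against 1, so differences between clones cannot be told apart from differences between arrays. Over 18820 genes, the within-tumour differences correlated at r = -0.046 between tumours 2567 and 2646, 0.057 between 2567 and 2676, and 0.20 between 2646 and 2676. These are descriptions across genes, which are not independent replicates, and the last pair shares the title mark on its BCR-negative arrays. At least 2-fold higher were 218 genes in the clone of tumour 2567, 40 in that of 2646 and 67 in that of 2676, and at least 2-fold lower were 97, 54 and 119. A 2-fold higher level was found in exactly 1 tumour for 269 genes, in exactly 2 for 25, and in 3 for Mgat4c and the Zic5 probe set. A 2-fold lower level was found in exactly 1 tumour for 203 genes, in exactly 2 for 29, and in 3 for Ighv1-72, Arsb and Il2ra. At least 2-fold in opposite directions in a pair of tumours were 30 genes.

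The largest differences within single tumours rest on 1 array against 1 and have no replicate check, and the genes named here were chosen after their values were seen. In tumour 2567, Kcnk1, a potassium channel, read 8.17 in the clone against 3.49, Ndufa4l2, a mitochondrial protein induced in hypoxia, 7.30 against 3.0, Gadd45b, a stress-inducible gene, 9.10 against 4.98, and Cd55, a complement regulator, 7.75 against 3.91. Fabp4, a fatty acid carrier, read 7.18 against 2.97 there and also differed by 1.68 in tumour 2676. Lower in this clone were Osr1, a zinc finger transcription factor (3.24 against 7.21), and Trib2, a pseudokinase (3.76 against 6.96). In tumour 2646, Hexa, a lysosomal hexosaminidase subunit, read 6.14 against 3.3. In tumour 2676, Egln3, an oxygen-sensing prolyl hydroxylase, read 6.38 against 3.80, Acsbg1, an acyl-CoA synthetase, 6.92 against 4.36, and Pnrc2, a nuclear receptor coactivator that also serves RNA decay, 3.70 against 7.71. Probe set 10582545, which has no gene in the annotation used, was higher by 8.53, 2.65 and 2.23 in the 3 clones, and its mean of 4.47 (SE 1.26, limma adjusted p = 0.890) was larger than that of Mgat4c.

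**Figure D5:**
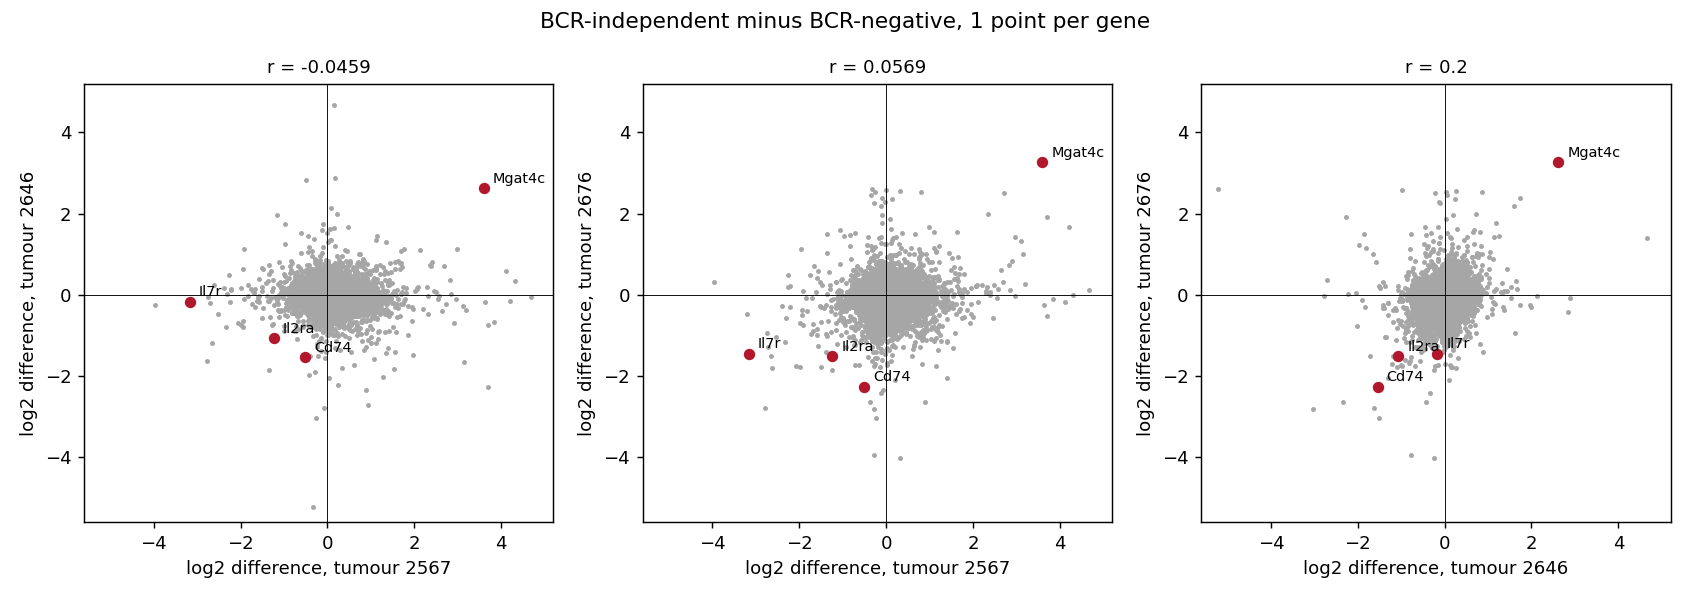
Log2 difference of each gene, BCR-independent minus BCR-negative, in 1 tumour (x axis) against another (y axis) for the 3 pairs of tumours, with grey points for 18820 genes and red points for 4 named ones. Mgat4c lies in the upper right corner and Il2ra in the lower left of each panel, and the clouds show r of -0.046, 0.057 and 0.20.

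Light chain probe sets gave some of the largest differences within tumours. Of 22 probe sets annotated to kappa or lambda light chain segments, 15 differed at least 2-fold in 1 tumour or more, 10 in tumour 2567, 11 in tumour 2646 and 3 in tumour 2676, and 0 were called. Over all 18820 genes, 296 were at least 2-fold higher in 1 tumour or more and 235 at least 2-fold lower. In tumour 2567, kappa probe set 10545247, annotated to more than 1 variable segment, read 8.82 in the clone against 2.87 in BCR-negative cells, and lambda probe sets 10438415 and 10438405 read 8.47 against 3.3 and 8.12 against 3.78. The kappa set stayed near 3 on the other 11 arrays. In tumour 2646, Igkv1-135 read 3.69 in the clone against 8.90 in BCR-negative and 11.08 in BCR-positive cells, while Igkv4-55 read 5.67 against 2.79. In tumour 2676, Igkv1-135 went the other way, with 7.45 against 4.86. Light chain segments include near-identical copies, so which segment gives a signal is uncertain.

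Markers of other cell types were dim in both groups with few exceptions. Of 37 such markers measured, 0 had an unadjusted p under 0.05. Mean levels of the T cell, natural killer, myeloid, erythroid, and stromal and endothelial lists lay between 2.73 and 3.81 on the clone arrays and between 2.72 and 3.84 on the BCR-negative arrays. Cd3e was at 3.14 and 3.05, Lyz2 at 2.66 and 2.74 and Csf1r at 3.31 and 3.16, all in the dim range. The largest difference was that of Fcgr3, an activating receptor for immunoglobulin G of myeloid and natural killer cells, at 0.81 (SE 0.45), with 2.06 in tumour 2567. Itgam was at 5.0 in both groups and Pecam1 at 6.59 and 6.76.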

How the data were processed

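The values are log2 signals that the authors deposited in a series table for Affymetrix Mouse Gene 1.1 ST arrays, produced, per the submitters' processing notes, by RMA in Affymetrix Power Tools. Their versions are not stated in these sources. RMA corrects background, equalises array distributions and summarises probe sets, which compresses differences between dim probe sets. The deposited log2 values were used unchanged, 0 columns were left out and 0 pairs of arrays were identical. The platform annotation paired 21218 probe sets with 1 gene symbol, 1881 with several and 12457 with none. Symbols of 21185 were updated through RefSeq gene IDs and 33 kept. Each of 18820 genes was represented by its brightest single-gene probe set, a choice among several for 1386.

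In R 4.3.3, limma 3.58.1 (lmFit, eBayes) fitted group and tumour to all probe sets on all 12 arrays (6 residual and 2.63 prior degrees of freedom), with Benjamini-Hochberg adjustment over 35556 probe sets and a threshold of 0.05. Nothing in the labels says whether a tumour's arrays came from separate cultures. The p-values rest on how group differences varied among these 3 tumours, over all 4 groups. How much of that spread is technical is not known. The tumour numbers pair the arrays through the titles. After the mean of each group was subtracted, array residuals correlated at 0.24 to 0.63 within a tumour and at -0.70 to 0.065 across tumours. Subtracting a mean of 3 arrays itself makes residuals of a group correlate negatively, so the across-tumour range is partly set by it. Each of the 12 arrays was nearest to one of its own tumour.

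The comparison, the 24 gene lists, the 5 marker lists and the naming rule were chosen with earlier results of these data known. Named are the 12 genes with the largest higher and the 12 with the largest lower values among those with an unadjusted p under 0.05, the same sign in 3 tumours and a brighter-group mean above 3.44, leaving out predicted genes and small RNAs. Also named are called probe sets, up to 4 list members of smallest p, and Mgat4c, Il7r, Myb, Ighv1-72 and Ighm. Other genes were named after their values were seen. Of 504 list memberships 450 were measured. Of 396 distinct list members, 12 have a probe set numbered among those of another chromosome. Promoter windows are from RefSeq, GRCm38.p6. Alternatives were no tumour block, filters at the 40th and 60th percentiles, only the 2 groups, robust eBayes with an intensity trend, weighted arrays, quantile and cyclic loess normalization, the title mark as a term, and each tumour left out.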

Additional observations from a re-analysis of the deposited data

How the results depend on the processing

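The 2 calls were made with the tumour block over all 12 arrays. The number of called probe sets was 0 with no replicate block and 0 with only the 2 groups, 1 with the title mark as a term (another probe set, 10340942), and between 0 and 2 with a tumour left out. The 2 calls without tumour 2646 were Mgat4c and a probe set of Tbx15. It was 2 in the other settings run (both filters, trend, array weights, quantile and loess normalization). The difference of Mgat4c stayed 3.16 with no replicate block (adjusted p = 0.084) and with only the 2 groups (adjusted p = 0.536), was 3.52 with the mark (adjusted p = 0.102) and 2.95 to 3.44 with a tumour left out. Over all its alternatives its adjusted p ran from 0.0113 to 0.997. That of probe set 10403043 was -3.64 with no replicate block (adjusted p = 0.084) and with only the 2 groups, -3.40 with the mark, and -3.88 to -3.45 with a tumour left out. The block changed no other call. Without the block more degrees of freedom but a larger median SE (0.132 against 0.107) entered, and with only the 2 groups 2 residual degrees of freedom remained.

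Signs turned for genes that had not been called. With the mark they were 0.63 for Ankrd37, 0.073 for H2-Aa and 0.41 for Slc2a1. With a tumour left out, the values ran from -0.12 to 0.032 for Ighm, -0.39 to 1.86 for Cd55, -2.11 to 0.028 for Osr1, -0.45 to 1.21 for Hexa, -2.77 to 1.13 for Igkv1-135, -0.49 to 1.29 for Egln3 and -2.13 to 0.033 for Pnrc2. Apart from Ighm, these turned when the tumour that held the large difference was left out. The cause of the turns with the mark was not tested. Other background corrections and scan batches were not run. No detection calls were used, so dim levels have no measured background beside them.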
